A study of Mus musculus with 16 samples.

Results

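Hepatocytes make most of the proteins that circulate in blood plasma. The genes described here are 48 of 49 listed mouse genes for such proteins, chosen by name for their roles. The list was made with earlier results of these data known. They fall into 6 carrier genes, 10 apolipoprotein genes, 11 complement genes, 14 genes of clotting and fibrinolysis, and 7 genes of acute-phase and matrix-binding proteins. C3 was not analysed here. Each gene was represented by its brightest probe set with 1 symbol, and the array named 12393 genes in all. The question was which of these genes differ in the liver of fasted mice that lack Klf15, a Kruppel-like transcription factor with zinc fingers.

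RNA of liver and of quadriceps muscle was measured on 16 Affymetrix Mouse430A_2 arrays. The wild-type (WT) and KLF15-null (knockout, KO) mice were female, 4 to 5 months old and fasted for 18 h, so no fed group was analysed here. Each of the 4 groups, liver WT, liver KO, quadriceps WT and quadriceps KO, held 4 arrays, with WT numbered 1 to 4 and KO numbered 5 to 8. The labels give neither the strain nor the deleted part of the gene, and they do not say whether the numbered samples come from separate animals. P-values therefore measure only the spread between these samples, which may be technical.

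As background, the carriers hold small molecules in plasma: albumin binds fatty acids and many drugs, transthyretin and retinol-binding protein carry thyroid hormone and retinol, and haptoglobin and hemopexin bind haemoglobin and haem. Apolipoproteins give lipoproteins their structure and steer their uptake and lipolysis. Complement and clotting are cascades of secreted proteases, in which one protease cleaves the next until a membrane pore or a fibrin clot forms. Acute-phase proteins are those whose production by hepatocytes changes during inflammation, largely under interleukin 6 and interleukin 1.

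Liver arrays had median signals between 41.6 and 48.9, and the signal is the arrays' linear intensity for a probe set, used as deposited. Klf15 itself read 1016, 1221, 1279.5 and 855 in WT liver and 200.4, 155, 149 and 158 in KO liver. No KO array reached a WT array (log2 difference -2.60, adjusted p = 9.87e-08, limma). The summed signal of 8 hepatocyte markers lay between 28070.0 and 28628 in WT and between 26587 and 29420.0 in KO liver, and that of 8 muscle fibre markers was at most 141.8, so the tissue matched its label. Fluidics station 2 handled every WT array and station 1 every KO array, and the effects of genotype and station cannot be told apart. Modules were numbered 1 to 4 on each station, and each number held 1 WT liver array on station 2 and 1 KO liver array on station 1. Below, a module means this number, which is a position and not a device shared by both genotypes. All liver arrays were scanned on the same day.

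In KO liver 9 of the 48 genes passed the test, 6 higher and 3 lower, and the other 39 did not. Apoa4, C8b, F11, F10, Apom and Itih1 rose, and C2, C9 and F7 fell. A gene passed when the limma p adjusted by Benjamini-Hochberg over all 7989 genes tested in liver was under 0.05. By that rule 10.1% of all genes passed, 4.86% higher and 5.24% lower, against 18.8% of the plasma protein genes. At an unadjusted p under 0.05 the number was 15. The share of all genes at that level was not computed, so this and the other unadjusted counts below have no background beside them. Among the 909 genes with a mean liver signal of 1000 or more, the share was 21.8%, with 8.69% higher and 13.1% lower. The 18.8% is not matched to that set, because it also counts C2, C6, C8b, F7 and F11, whose mean signals were under 1000. Of these, C2, C8b, F7 and F11 passed. All 48 genes were above the low-signal limit of 24.0 in liver. Differences are KO minus WT on the scale of log2(signal + 16), and their median over the 48 genes was -0.02, against 0.03 over all genes. Their median size without regard to sign was 0.11, against 0.15. The 2 groups of arrays did not overlap in 11 of the 48 genes, 6 higher and 5 lower, and in 15.9% of all genes, 8.4% higher and 7.5% lower. In bulk tissue, fewer cells of a type and less RNA per cell cannot be told apart.

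**Figure D1:**
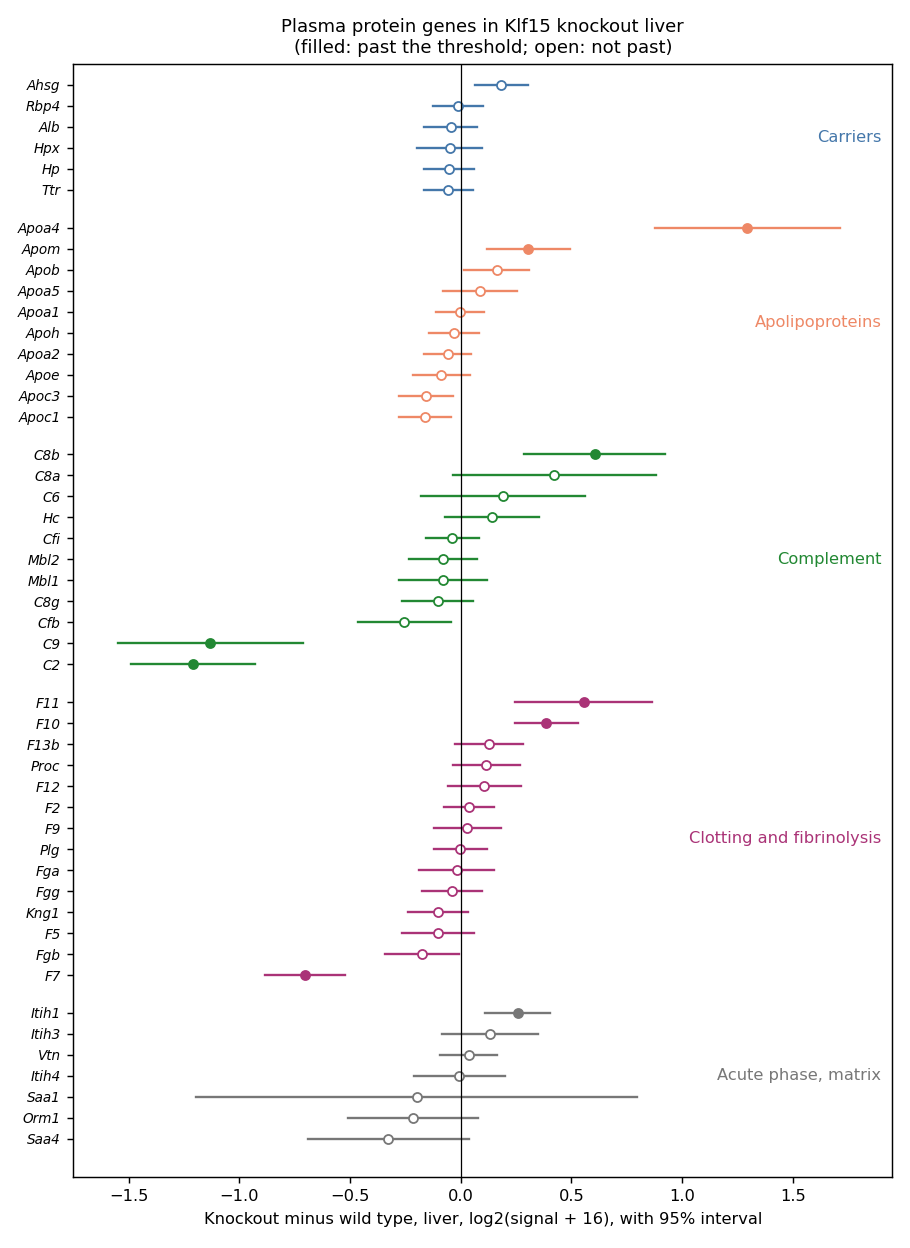
Difference between KO and WT liver for the 48 plasma protein genes, in log2(signal + 16), grouped by class, with bars for the 95% interval from limma and 4 arrays per group. The filled points are the 9 genes past the threshold, from Apoa4 at 1.29 to C2 at -1.21, and Saa1 has the widest interval.

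Among the 48 genes, those that passed were not the brightest ones. With the probe sets used, WT means ran from 178 for C6 to 10148 for Apoa2, and 17 of the 48 genes were among the 50 brightest genes of WT liver. Of the 23 plasma protein genes with a mean liver signal of 5000 or more, 0 passed (limma), 5 had an unadjusted p under 0.05, and the median size of difference was 0.05. Among all 99 genes that bright, 13.1% passed and the median size was 0.07. Of the 25 dimmer plasma protein genes, 9 passed, or 36%, and the median size was 0.22. Over all genes tested 10.1% passed, and 21.8% of those with a mean signal of 1000 or more. The share of all genes under 5000 was not computed. The genes that passed had WT means between 192 and 2799. Whether the signal still follows the amount of RNA at the bright end was not tested. Among the 39 genes that did not pass, 34 had a 95% interval that lay within 0.5 of zero, which is 1.41-fold in either direction, and the 5 others were C6, C8a, Saa1, Saa4 and Orm1.

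**Figure D2:**
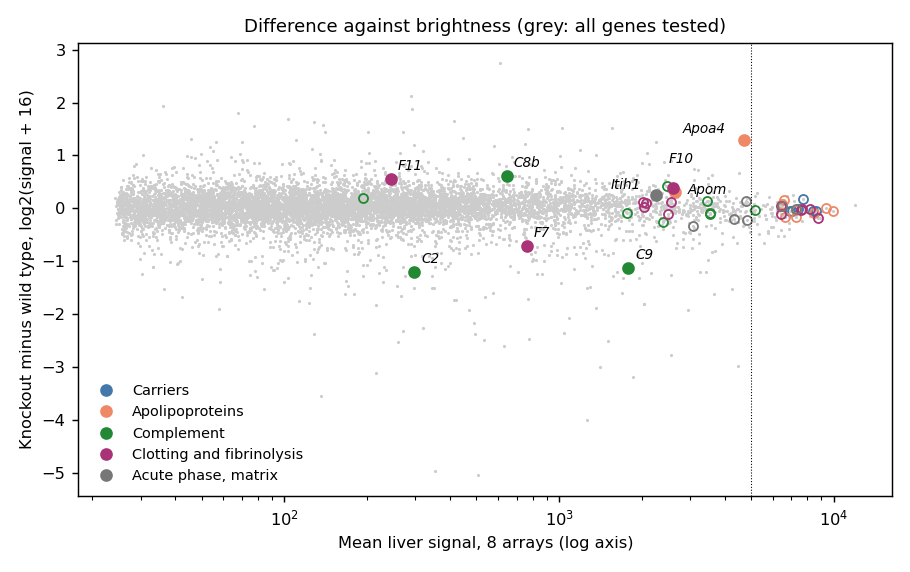
Difference between KO and WT liver against the mean liver signal of 8 arrays (log axis), with all 7989 genes tested in grey, plasma protein genes in colour by class, and filled points for those past the threshold. All 23 plasma protein genes to the right of the dotted line at 5000 are open points close to zero.

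Promoter windows are printed for 4 of the genes that passed, the neighbours F7 and F10, which moved in opposite directions, and Apoa4 and C9, the largest rise and the largest fall among the genes with a window. The windows are the 250 bases before the RefSeq gene start on assembly GRCm38.p6, all on the plus strand, with CACCC or its reverse complement GGGTG in capitals. Kruppel-like factors are known to bind such CACCC boxes and related GC-rich sites. F7 lies at chr8:13025784-13026033, F10 at chr8:13037058-13037307, Apoa4 at chr9:46240594-46240843 and C9 at chr15:6445096-6445345.
F7: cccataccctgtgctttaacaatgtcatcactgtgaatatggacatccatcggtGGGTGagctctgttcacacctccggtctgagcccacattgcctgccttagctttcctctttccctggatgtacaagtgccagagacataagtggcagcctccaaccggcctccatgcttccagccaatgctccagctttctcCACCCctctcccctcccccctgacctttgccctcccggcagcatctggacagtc
F10: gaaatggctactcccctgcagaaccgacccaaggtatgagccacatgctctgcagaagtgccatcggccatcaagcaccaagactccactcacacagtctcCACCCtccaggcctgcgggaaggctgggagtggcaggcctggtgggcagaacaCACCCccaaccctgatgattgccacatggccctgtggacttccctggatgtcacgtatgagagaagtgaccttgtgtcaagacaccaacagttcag
Apoa4: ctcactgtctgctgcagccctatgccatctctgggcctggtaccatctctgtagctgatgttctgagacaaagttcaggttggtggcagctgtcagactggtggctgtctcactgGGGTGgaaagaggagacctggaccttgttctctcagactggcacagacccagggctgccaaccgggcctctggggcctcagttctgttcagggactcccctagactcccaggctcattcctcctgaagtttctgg
C9: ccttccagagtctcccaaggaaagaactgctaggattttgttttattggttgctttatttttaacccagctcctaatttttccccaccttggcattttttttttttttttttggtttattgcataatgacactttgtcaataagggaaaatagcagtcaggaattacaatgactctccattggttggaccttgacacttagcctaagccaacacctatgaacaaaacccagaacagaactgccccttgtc
The F7 and F10 windows each held 2 CACCC matches on either strand, the Apoa4 window held 1 and the C9 window held 0.

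A RefSeq window was found for 37 of the 48 genes, 43 windows in all, and for 8 of the 9 genes that passed; the remaining gene was C2. CACCC on either strand was in 26 of the 43 windows, or 60.5%, and in 52.0% of all 32851 RefSeq windows of this length. Among the genes that passed, Apoa4, F7, F10, F11 and Itih1 had it, which includes genes that rose and a gene that fell. The letters TTNNGNAA, a loose form of the site for C/EBP factors, were in 44.2% of the plasma protein windows and in 36.8% of all. TTCNNNGAA, the form for STAT factors, was in 11.6% and 7.02%, and in 0 of the 8 windows of genes that passed. Each motif was counted on both strands by itself, so matches of different motifs may overlap. These matches are letters in a window and not measured sites.

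The carriers were the class with no gene past the threshold, 0 of 6 (limma), with 1 at an unadjusted p under 0.05 and a median difference of -0.05. Alb, which encodes albumin, read 9084, 9098.5, 8202 and 8560.1 in WT and 8537, 8003, 8789 and 8543 in KO. The groups overlapped, and the difference was -0.04 (SE 0.06, 95% interval -0.16 to 0.08). Ttr, for transthyretin, differed by -0.06, Hp, for haptoglobin, by -0.05, Hpx, for hemopexin, by -0.05 and Rbp4, for retinol-binding protein, by -0.01. The nearest to the threshold was Ahsg, which encodes fetuin-A, an inhibitor of mineral deposition. It read 7259, 6967, 7237 and 7442.5 in WT and 8481, 7619.8, 8624 and 8143 in KO. Every KO array lay above every WT array, with a difference of 0.18 (SE 0.06, adjusted p = 0.0550). Without KO 6 it passed, with 0.22 and an adjusted p of 0.0340, and it passed under quantile normalization, with 0.26 and an adjusted p of 0.00407.

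Other hepatic carriers and hormone-binding proteins, 15 further genes tested as a list, had 0 higher and 4 lower. That was 26.7%, against 10.1% of all genes tested in liver. Serpina6, for corticosteroid-binding globulin, fell from 2357 ± 142 (SD, n = 4) to 158 ± 115, a difference of -4.00. Igfbp2, an insulin-like growth factor binding protein, fell from 3114 ± 238 to 963 ± 527 (-1.80). The lipid-mobilising Azgp1 (-0.42) and Fetub (-0.32), a relative of Ahsg, also fell. The median over the 15 genes was -0.03.

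Among the 10 apolipoprotein genes, Apoa4 and Apom rose and the other 8 did not pass, with a median of -0.02. Apoa4, a protein of chylomicrons and high-density lipoprotein, read 1862, 2131, 3914 and 3290.1 in WT liver and 7148.5, 5479, 7171.5 and 6694 in KO liver. All KO arrays were above all WT arrays, and WT 1 and 2 were lower than WT 3 and 4. The mean went from 2799 ± 967 to 6623 ± 794, or 2.37 times, with a difference of 1.29 (SE 0.19, adjusted p = 0.000924). It was the largest rise among the 48 genes. A second Apoa4 probe set went from 1961 to 6261 (1.84, adjusted p = 0.0021).

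Apom, which carries sphingosine-1-phosphate on high-density lipoprotein, read 2220.4, 2595, 2189 and 2399.5 in WT and 2859, 2565, 3278 and 2947 in KO. KO 6 lay below WT 2, so the groups overlapped, although the difference of 0.30 passed (SE 0.09, adjusted p = 0.0425). It passed without WT 2 or without KO 6 and lost the threshold without any 1 of the 6 other arrays, with adjusted p-values from 0.0683 to 0.124. With the module as a block it did not pass either (adjusted p = 0.0834). A second Apom probe set differed by 0.20 and did not pass (adjusted p = 0.203).

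The bulk apolipoproteins did not pass. Apoa1, the main protein of high-density lipoprotein, read 9270.0, 9890.0, 9208 and 8957 in WT and 9066, 9287, 9602.5 and 9306 in KO, a difference of -0.00 (95% interval -0.11 to 0.11). Its 3 other probe sets were all brighter in liver and differed by 0.01 to 0.13. The brightest of them went from 11056 to 12071 and did not pass (0.13, limma adjusted p = 0.164). Apoa2 differed by -0.06, Apoe, the ligand for hepatic lipoprotein uptake, by -0.09, Apoh by -0.03 and Apoa5, an activator of lipoprotein lipase, by 0.09. Apob, the structural protein of very-low-density lipoprotein, differed by 0.16 (adjusted p = 0.159), and under quantile normalization by 0.24, which passed (adjusted p = 0.0122). Apoc1 and Apoc3, which restrain the clearance of triglyceride-rich particles, were lower on every KO array than on any WT array, by -0.16 each, and did not pass (adjusted p = 0.0828 and 0.106).

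Of 13 other lipoprotein genes tested, 2 rose and 2 fell (30.8%, against 10.1% of all genes), with a median of 0.07. Apoc2, the cofactor of lipoprotein lipase, rose from 2843 ± 584 to 4330 ± 151 (0.62), and Mttp, which loads lipid onto apolipoprotein B, rose by 0.43. The lipase inhibitor Angptl4 fell (-0.51), as did Pon1, an esterase on high-density lipoprotein (-0.28).

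Complement held the largest fall of the 48 genes. C2 and C9 fell, C8b rose, and the other 8 of the 11 genes did not pass, with a median of -0.08. C2, the protease subunit of the classical pathway convertase, read 455, 399, 380.2 and 444 in WT and 142, 181.5, 156 and 217 in KO. No arrays overlapped, and the mean in KO was 0.415 times that in WT (difference -1.21, SE 0.13, adjusted p = 6.26e-05). Its neighbour Cfb, the matching subunit of the alternative pathway, went from 2605 ± 281 to 2182 ± 252 with overlap, a difference of -0.25 that did not pass (adjusted p = 0.130).

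The terminal genes, whose products form the membrane attack pore, went different ways. C9, whose product polymerises into the pore, read 2277, 2221, 2194 and 3023 in WT and 802.5, 1126, 906 and 1723 in KO. All KO arrays were below all WT arrays, and WT 4 and KO 8 were the highest of their groups. The KO mean was 0.469 times the WT mean (difference -1.13, SE 0.19, adjusted p = 0.00231). C8b, the beta chain of C8, read 372, 516, 540.5 and 609.8 in WT and 649, 817.5, 730.0 and 917 in KO, again without overlap. The difference was 0.61 (SE 0.15, adjusted p = 0.0199), and without KO 8 it was 0.52 and lost the threshold (adjusted p = 0.0625). It also lost it under quantile normalization (0.58, adjusted p = 0.0582) and median centring (0.59, adjusted p = 0.0529). C8a, the alpha chain, differed by 0.42 with a wide interval from -0.04 to 0.88 (adjusted p = 0.255). It was higher in KO within all 4 modules, by 0.10 to 0.78, and with the module as a block it passed (adjusted p = 0.0396). C8g, the gamma chain, differed by -0.10. Hc, which encodes component 5, differed by 0.14 and C6 by 0.19. Within the modules, C2 differed by -1.58 to -0.98, C9 by -1.49 to -0.80 and C8b by 0.42 to 0.78.

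The remaining complement genes did not pass. Cfi, the protease that shuts down convertases, differed by -0.04, and the mannose-binding lectins Mbl1 and Mbl2 by -0.08 each. Of 9 other complement genes tested, 2 rose and 0 fell (22.2%, against 10.1% of all genes). C1s1, a protease of the first classical component, went from 1491 ± 55.9 to 1859 ± 19.8 (0.32), and Masp1, a protease that works with the lectins, went from 537 ± 59.7 to 823 ± 73.0 (0.60).

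**Figure D3:**
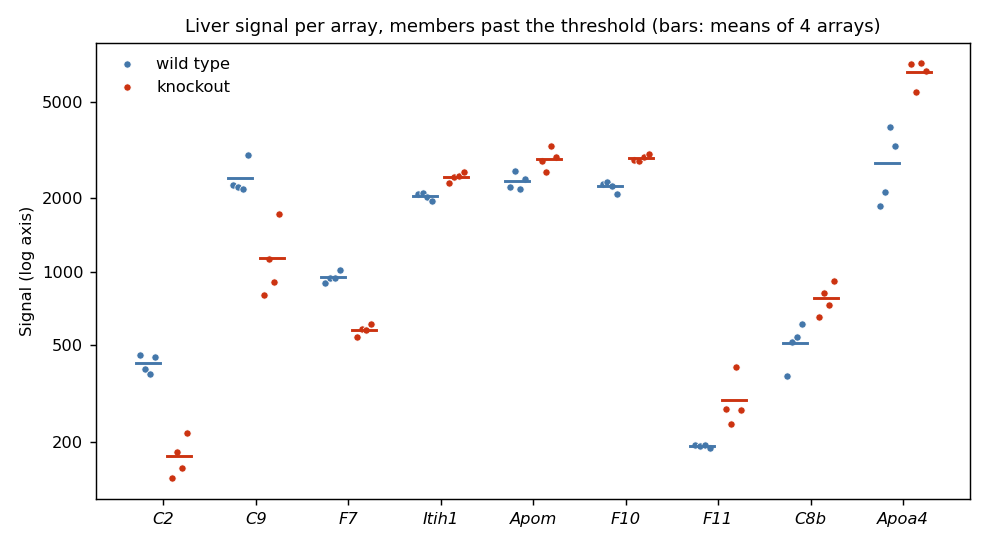
Liver signal (log axis) on each of 4 WT and 4 KO arrays for the 9 plasma protein genes past the threshold, with bars at the group means. The KO points lie apart from the WT points in every gene but Apom, where KO 6 at 2565 is below WT 2 at 2595.

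In clotting and fibrinolysis F7 fell, F10 and F11 rose, and the other 11 of 14 genes did not pass, with a median of 0.01. F7, the factor that tissue factor uses to start clotting, read 897, 941, 939 and 1020.0 in WT and 541, 579.6, 576 and 609.5 in KO. The spread within each group was small beside the gap between them. The KO mean was 0.607 times the WT mean (difference -0.70, SE 0.08, adjusted p = 0.000164), and within the modules the difference lay between -0.73 and -0.68.

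F10, the protease that turns prothrombin into thrombin, read 2283, 2331, 2246 and 2093 in WT and 2863, 2839, 2970.3 and 3053 in KO. Every KO array was higher than every WT array, 1.31 times in the mean (0.39, SE 0.07, adjusted p = 0.0023). Its 2 other probe sets were dimmer and differed by 0.18 and 0.29 without passing. F11, a protease of the contact-activated branch, read 193, 193, 194 and 188 in WT and 271, 237, 407 and 269 in KO. The groups did not overlap and KO 7 was the highest, with a difference of 0.56 (SE 0.14, adjusted p = 0.0264). It stayed past the threshold without any 1 KO array but lost it without WT 1, 2, 3 or 4, with differences from 0.55 to 0.56 and adjusted p-values from 0.0532 to 0.0627.

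The substrates and the other proteases of the cascade did not pass. F2, prothrombin, differed by 0.04 (95% interval -0.08 to 0.15), F9 by 0.03, F5, the cofactor of F10, by -0.10 and F12 by 0.11. The fibrinogen chains Fga, Fgb and Fgg differed by -0.02, -0.18 and -0.04. Plg, plasminogen, the precursor of the enzyme that dissolves fibrin, differed by -0.00, Proc, the anticoagulant protein C, by 0.12 and F13b, a subunit of the factor that crosslinks fibrin, by 0.13. Kng1, kininogen, differed by -0.10 with its brightest probe set. A second Kng1 probe set went from 3360.1 to 2590 without overlap (-0.38, adjusted p = 0.0157), and how far it takes signal from the related Kng2 was not tested. Of 17 other clotting genes tested, 0 rose and 0 fell (limma), with 4 at an unadjusted p under 0.05 and a median of 0.04.

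Among the 7 acute-phase and matrix-binding genes, Itih1 rose and the others did not pass, with a median of -0.01. Itih1, a heavy chain of the inter-alpha-trypsin inhibitor that binds hyaluronan, read 2093, 2110.5, 2018.5 and 1949 in WT and 2315, 2437, 2471 and 2555 in KO. The groups did not overlap, but the difference was small at 0.26 (SE 0.07, adjusted p = 0.0282). It lost the threshold without WT 2, 3 or 4 and without KO 6, 7 or 8, with adjusted p-values from 0.0538 to 0.0800, and also with the module as a block (adjusted p = 0.0521). Itih3 differed by 0.13, Itih4 by -0.01 and Vtn, vitronectin, by 0.04.

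The classical acute-phase genes varied widely between arrays of a group. Saa1, a serum amyloid A gene, read 4533, 3383, 1843 and 8121.5 in WT and 2159, 2680.2, 2429 and 9362 in KO. WT 4 and KO 8 were far above the others, and the difference was -0.20 with an interval from -1.20 to 0.80. Saa4 read 2647, 3319, 2949.8 and 4806 in WT and 2476, 2697, 2199.8 and 3398 in KO (difference -0.33, adjusted p = 0.267). It was lower in KO within all 4 modules, by -0.50 to -0.10, and with the module as a block it passed (adjusted p = 0.0327). A second, dimmer Saa4 probe set differed by -0.13 and did not pass without a block (limma adjusted p = 0.833). Orm1, which encodes an acid glycoprotein, read 5363.5, 4622.5, 4672 and 5847 in WT and 3942, 4064, 3782 and 6134 in KO (difference -0.22). Without KO 8, Orm1 was lower by -0.38 and passed (adjusted p = 0.0237). Probe sets of the Saa and Orm families may share signal between close relatives.

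The same pair of arrays led in many of the other genes too. WT 4 was the highest WT array and KO 8 the highest KO array in 13 of the 48 plasma protein genes, or 27.1%, and in 2.25% of all genes tested. These were Saa1, Saa4, Orm1, Itih3 and Itih4, the complement genes C8a, C8b, C9 and Hc, and Fgb, Fgg, F7 and Kng1. By class this was 5 of 7 acute-phase and matrix genes, 4 of 11 complement genes, 4 of 14 clotting genes, 0 of 6 carriers and 0 of 10 apolipoproteins. Of 16 other acute-phase genes tested, 10 had the same order. Between genotypes 0 of the 16 passed (limma), with 4 at an unadjusted p under 0.05. Saa2 read 5150.0 on WT 4 and 6023 on KO 8, and at most 2098 on the other arrays. Lcn2, a siderophore-binding protein, read 3452 on WT 4 and 6243 on KO 8, and at most 1219 on the other WT and 2184.5 on the other KO arrays. The summed signal of 7 leukocyte markers was 558, 739, 339 and 679 in WT and 518, 618.5, 1031 and 1142 in KO, so KO 8 was highest but WT 4 was not. Of the 5 leukocyte markers tested, 1 had the same order of arrays (S100a8). So did 1 of 14 acute-phase signalling genes (Socs3). WT 4 and KO 8 were both on module number 4, each on its own station. Module number and sample cannot be told apart, and the part of either in this order was not tested.

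**Figure D4:**
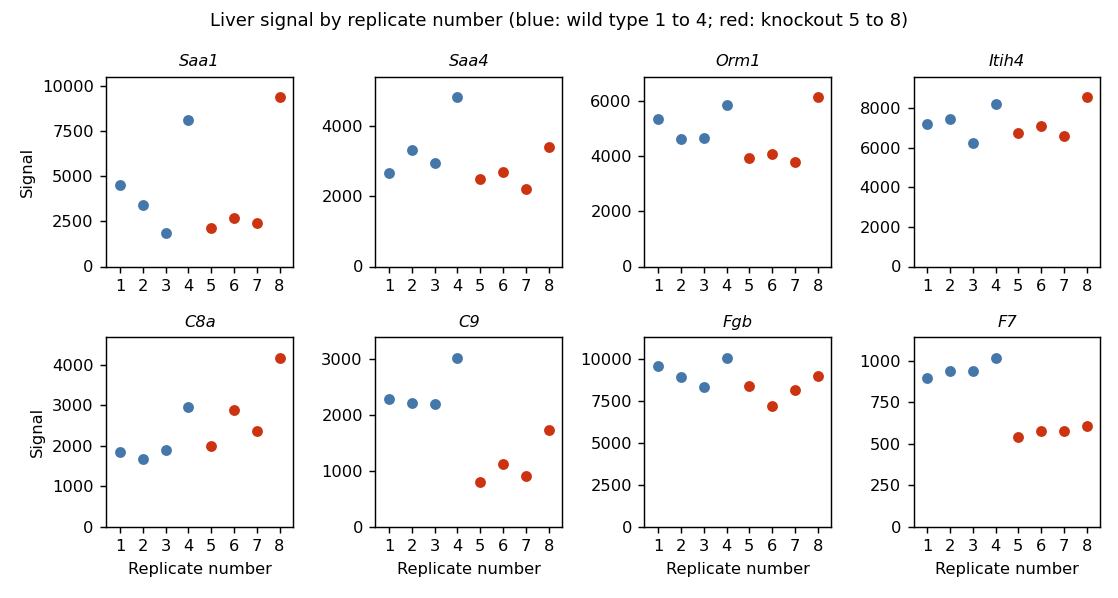
Liver signal (linear axis from 0) by replicate number for 8 plasma protein genes, with WT 1 to 4 in blue and KO 5 to 8 in red. The 8 were picked from the 13 of 48 genes in which WT 4 and KO 8 were the highest of their group. By that choice they are highest in each panel, by a wide margin in Saa1, while F7 also shows the gap between the genotypes.

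Without WT 4 and KO 8, an alternative chosen after these values were seen, 8 of the 48 genes passed, 3 higher and 5 lower. C2 (-1.28), C9 (-1.24), F7 (-0.70), Apoa4 (1.39), F10 (0.34) and C8b (0.62) still passed. Apom (0.31), F11 (0.58) and Itih1 (0.21) no longer did, and Cfb (-0.37, adjusted p = 0.0459) and Orm1 (-0.31, adjusted p = 0.0421) passed as lower.

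Of 14 genes of acute-phase signalling, 0 rose and 2 fell, or 14.3%, against 10.1% of all genes tested in liver. Cebpb, a transcription factor of the acute-phase response, read 1641, 1629, 1732 and 1535 in WT and 1059, 758.5, 639.8 and 965 in KO. No KO array reached a WT array, and the difference was -0.95 (SE 0.13, adjusted p = 0.000644). Nfkbia, the inhibitor of NF-kappa B, fell by 0.50 on the log2 scale. Of 15 hepatocyte regulators, 3 rose and 0 fell (20%, against the same 10.1%). They were Foxa1, a forkhead factor (0.56), Xbp1, a factor of the secretory stress response (0.33), and Creb3l3, a membrane-bound factor of the fasted liver (0.32). Of 19 genes of the secretory pathway, 3 rose and 0 fell (15.8%, against the same 10.1%). Mcfd2, a part of the receptor that carries clotting factors V and VIII out of the endoplasmic reticulum, went from 1603 ± 174 to 2262 ± 60.7 (0.50). The foldases Fkbp11 (1.55) and Pdia3 (0.37) also rose, and the median of the 19 genes was 0.16.

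Of the 8 hepatocyte markers Cyp2e1 fell (-0.24), of the 10 macrophage markers Marco rose, from 58.3 ± 30.3 to 219 ± 130, and of the 7 endothelial markers Kdr rose (0.49). These shares were 12.5%, 10% and 14.3%, against 10.1% of all genes. The summed macrophage signal lay between 5209.8 and 8007 in WT and between 5742 and 9368 in KO, and the endothelial sum between 1599 and 1843 in WT and between 1806 and 2351 in KO. The part of these markers in the differences was not tested.

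Several of the 48 genes are direct neighbours. Counting protein-coding genes in the RefSeq gene order, 20 of them formed 8 clusters with 12 adjacent pairs. In 0 pairs did both members pass in the same direction, in 5 pairs 1 member passed, and in 6 pairs neither did. In 1 pair, F7 and F10 on chromosome 8, the members passed in opposite directions, -0.70 and 0.39. In the cluster on chromosome 9, Apoa4 rose by 1.29 while Apoc3 differed by -0.16, Apoa1 by -0.00 and Apoa5 by 0.09. On chromosome 4, C8b and C8a differed by 0.61 and 0.42, and on chromosome 17, C2 and Cfb by -1.21 and -0.25. Itih4, Itih3 and Itih1 on chromosome 14 differed by -0.01, 0.13 and 0.26. Differences between neighbours were not tested.

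**Figure D5:**
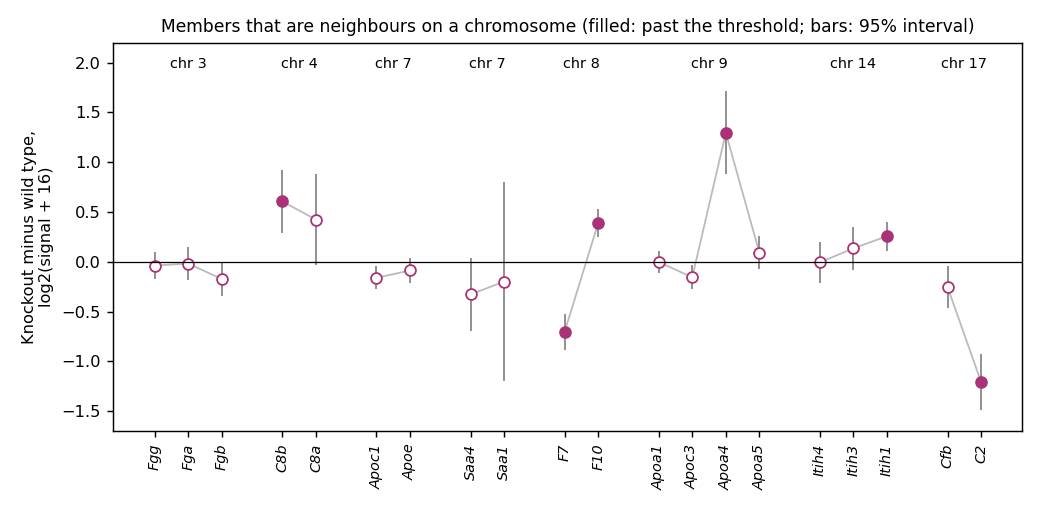
Difference between KO and WT liver, in log2(signal + 16) with the 95% interval, for the 20 plasma protein genes that are neighbours, in chromosome order and joined by grey lines within a cluster. The line from F7 at -0.70 to F10 at 0.39 joins the only pair in which both genes passed.

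In quadriceps most of these genes were at or near the low end of the scale. Quadriceps arrays were scaled to a common median, and KO 8 stood apart there with an unscaled median of 15.6 and a scan 3 days after the others. On all quadriceps arrays 20 of the genes lay below the limit of 22.6, and 7 passed the low-signal filter. Of those, Rbp4 fell and Alb, Apoc3, Apoe, C2, Cfb and Vtn did not pass, against 0.976% of all 7991 genes tested, 0.0501% higher and 0.926% lower, and a median difference of -0.18 over those. In WT the liver mean was 13.3 times the quadriceps mean for C2, 23.6 times for Apoe, 37.6 times for Vtn and 104 times for Rbp4, the genes above that limit on every WT quadriceps array. Apoe, the brightest, went from 368 ± 46.4 to 351 ± 32.9 (-0.06).

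Rbp4 read 90.9, 78.9, 74.1 and 40.4 in WT quadriceps and 36.0, 33.2, 18.7 and 10.04 in KO 5 to 8, in scaled signal. Every KO array lay below every WT array, as in 8.22% of all genes in either direction, and KO 8 was the lowest (difference -1.12, SE 0.26, adjusted p = 0.0470). Without KO 8 it was -0.94 and still passed (adjusted p = 0.0167), and without WT 1, 2 or 3 or KO 7 it lost the threshold, with differences from -1.11 to -0.99 and adjusted p-values from 0.0965 to 0.173. Fat cells also make Rbp4. Of 5 fat cell markers tested beside it in quadriceps, 0 passed (limma), 3 had an unadjusted p under 0.05, and the median difference was -0.50. Adipoq, the marker with the largest difference, went from 745 ± 215 to 387 ± 293 (-1.12, adjusted p = 0.155). Lep, Cidec and Retn differed by -0.65, -0.50 and -0.41 and Car3, which muscle also makes, by 0.21. The summed signal of the 5 markers includes Car3, so it does not measure fat alone. It lay between 7797 and 10400.0 in WT and between 6188.5 and 22557 in KO. The part of fat in the difference of Rbp4 was not tested.

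The difference between the tissues was tested for the 7 genes, as the KO effect in liver minus that in quadriceps, and 0 passed (limma), with 2 at an unadjusted p under 0.05, against 1.92% of 8966 genes past the threshold. Rbp4 came nearest, at 1.11 (adjusted p = 0.0510), followed by C2 at -1.05 (adjusted p = 0.0673). Without quadriceps KO 8 both passed, Rbp4 at 0.93 and C2 at -0.76 (adjusted p = 0.0128 and 0.0221). Both also passed without quadriceps KO 5 (1.22 and -1.23), and Rbp4 passed without quadriceps WT 4 (1.32) or KO 6 (1.24). In quadriceps C2 read 12.95 to 59.2 in scaled signal in KO and 28.7 to 34.6 in WT, with KO 8 the highest.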

How the data were processed

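RNA of 16 samples was hybridised to Affymetrix arrays, 1 array per sample, and samples were grouped by their titles. The deposited intensity is a linear signal, which the authors made with GCOS per the submitters' processing notes (for its version, summary method and scaling, not given in the sources used here). The records of fluidics station, module and scan day came with each array, per the file headers. Detection calls were not used. With 4 arrays per group, the array number limits precision.

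Of 22626 probe sets that are not controls, 20380 had 1 gene symbol in the platform annotation, 691 had several and 1555 had none; the last 2 kinds were left out. Each gene took the probe set with the highest mean log2(signal + 16) over 16 arrays. Arrays were scaled to the median only where medians in a tissue differed over 1.5 times, so liver was used as deposited and quadriceps was multiplied by 0.678 to 2.57. Genes whose mean reached the 40th percentile were tested. Adding 16 understates the change of dim genes.

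KO minus WT was fitted per tissue with limma 3.58.1 in R 4.3.3 (lmFit, eBayes with a variance trend), adjusted by Benjamini-Hochberg over all genes tested, threshold 0.05, and tested on simulated data. The fit of several probe sets of a gene was adjusted over all probe sets. Promoters and neighbours came from RefSeq tables of GRCm38.p6, which held 12369 of the 12393 genes. The members, lists and motifs were chosen with earlier results of these data known, and the 4 promoters shown after their values were seen, in place of protein sequences, which were not used here. Every member is named; of each other list, the genes past the threshold are named, at most 4. Figures were drawn with matplotlib 3.10.9.

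Alternatives were pseudocounts of 1 and 64, no filter and the 60th percentile, quantile normalization, median centring, no scaling (quadriceps), no variance trend, other probe set choices, all 16 arrays in 1 fit, replicate, module and scan day as blocks, and leaving out each array. The labels number liver and quadriceps samples alike, but the deviations of same-numbered samples correlated between -0.07 and 0.05, 0 of 8 over 0.1, so the numbers were not taken to pair samples.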

Additional observations from a re-analysis of the deposited data

Results flagged for a closer look

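In 110 groups of 4 arrays, the gap from the highest or lowest array to the nearest other was set against the range of the group on the log2(signal + 16) scale. In 4 groups 1 array stood apart, and chance alone gives about 5% of groups. In WT liver, C9 on WT 4 read 3023, against 2194 to 2277 on the others, and the gap was 0.885 of the range. In KO liver the array was KO 8 in the 3 other cases. Mbl1 read 2045 there, against 1606 to 1633 (0.931 of the range). Saa1 read 9362, against 2159 to 2680.2 (0.853), and Orm1 read 6134, against 3782 to 4064 (0.851). In the 8 fits that left out 1 array each, C9 differed by -1.35 to -0.99 and passed in each.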

How the results depend on the processing

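No liver difference of a plasma protein gene that passed changed direction under any of 21 alternatives, of which the fit without WT 4 and KO 8 was chosen after seeing the data. Apoa4, C2, C9 and F7 passed under all of them, F10 under 19, C8b under 18, F11 under 14, Itih1 under 10 and Apom under 8. With all 16 arrays in 1 fit, 5 genes passed, 2 of them higher, with 1 apolipoprotein, 1 clotting and 0 acute-phase genes. With the replicate block in that fit the counts were again 5, 2, 1, 1 and 0, and 333 against 328 of all genes passed; between these 2 fits no call of a plasma protein gene changed. Apolipoproteins gave 1 call with no filter, without the variance trend, with the mean of all probe sets and with the module as a block. The module block kept the count at 9, with C8a and Saa4 gained and Apom and Itih1 lost. Without the variance trend, 0 acute-phase genes passed. With the 60th percentile or quantile normalization 1 carrier passed (Ahsg). Quantile normalization also gained Apob and lost C8b, which median centring lost too. Leaving out 1 liver array gave 6 to 9 calls, 3 to 6 higher and 3 to 4 lower, with 0 to 1 carriers, 1 to 2 apolipoproteins, 2 to 3 complement, 2 to 3 clotting and 0 to 1 acute-phase genes. Without WT 4 and KO 8, 3 were higher, 5 lower, and 1 was an apolipoprotein. Over all genes, 328 to 1033 passed, against 807. In quadriceps, 0 passed under a pseudocount of 1, no filter, quantile normalization or no variance trend, and 0 to 1 without 1 array. At the 60th percentile 0 passed too, but there Rbp4 fell below the filter and was not tested in quadriceps. The tissue difference passed in 1 gene under a pseudocount of 64 (C2), the 60th percentile, quantile normalization, the mean of all probe sets or the module as a block (Rbp4 each), in 2 under median centring or the scan day as a block, and in 0 to 2 without 1 array. The cause of these shifts was not tested. The scan day could not be used as a block in liver, where all arrays share it. Depth has no counterpart on these arrays, and dim genes such as C6 are limited by background.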
